A study of Mus musculus with 8 samples.

Results

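H3K27Ac was measured at 10 genes that move calcium in and out of the sarcoplasmic reticulum of cardiomyocytes, *Ryr2*, *Casq2*, *Trdn*, *Jph2*, *Hrc*, *Atp2a2*, *Pln*, *Sln*, *Slc8a1* and *Camk2d*. A peak was given to a gene when its center lay nearest to a curated RefSeq transcription start of that gene. This gave 81 of the 45980 peaks on assembled chromosomes, spread over 9 of the 10 genes. *Sln* had no peak. The chromatin came from ventricles of mice at postnatal day 7 (P7). Controls were Arid1a f/f, with loxP sites in both *Arid1a* alleles and no Cre, and *Arid1a cKO* mutants carried the same floxed alleles together with αMHC-Cre, a transgene driven by the αMHC promoter that is active in cardiomyocytes. H3K27Ac ChIP-Seq, which sequences the DNA bound to histone H3 acetylated at lysine 27, was made for 2 control and 2 *Arid1a cKO* samples, and each had an input library, for 8 libraries in all.

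The contraction of a cardiomyocyte starts when calcium entering through L-type channels opens the ryanodine receptor RYR2, which releases calcium from the sarcoplasmic reticulum. Calsequestrin (*Casq2*) stores calcium in the lumen, triadin (*Trdn*) ties it to the receptor, junctophilin (*Jph2*) holds the reticulum close to the cell surface, and HRC is a further calcium-binding protein of the lumen. SERCA (*Atp2a2*) pumps calcium back and is held in check by phospholamban (*Pln*) and, mainly in atria, sarcolipin (*Sln*). The sodium-calcium exchanger NCX1 (*Slc8a1*) removes calcium from the cell, and the kinase CaMKII delta (*Camk2d*) phosphorylates several of these proteins. H3K27Ac marks active promoters and enhancers, and ARID1A belongs to SWI/SNF, a complex that remodels nucleosomes.

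The deposited table gives for each peak and group the log2 of the group's mean count of normalized reads and holds 0 columns of single samples, so the spread between the 2 samples of a group and the depth of each library are unknown. Differences are the group log2 mean of *Arid1a cKO* minus that of control. They are descriptions without a test, and no difference could be set against replicate error. Levels are given as normalized reads, the group mean taken back to the linear scale. A difference of at least 1 on the log2 scale, which is 2-fold, is used only to count peaks. Over all 45980 peaks the median difference was 0.01 and reads summed over peaks differed by −5.65%. The promoter peak of *Arid1a* had 1607 normalized reads in control and 1663 in *Arid1a cKO* hearts, which does not check the deletion, since the mark can remain at the promoter of a gene with deleted exons.

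Of the 81 peaks near calcium handling genes, 8 were at least 2-fold lower in *Arid1a cKO* hearts, which is 9.88% beside 10.6% of all peaks. A further 3 were at least 2-fold higher, 3.70% beside 4.57% of all peaks. Both shares were thus close to those of the whole table, and the median difference was −0.05, with 44 peaks below 0, 36 above and 1 at 0. The 8 lower peaks belonged to *Casq2* (4), *Slc8a1* (3) and *Ryr2* (1). Every lower peak lay in an intron of its own gene, between 12.2 and 318 kb from the start, and none covered a start. Among all 81 peaks, 63 were centered in an intron of their own gene and 8 covered a start, groups that overlap. The 3 higher peaks were small, with 4.99 to 14.6 normalized reads in control and 11.9 to 38.3 in *Arid1a cKO* hearts.

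**Figure D1:**
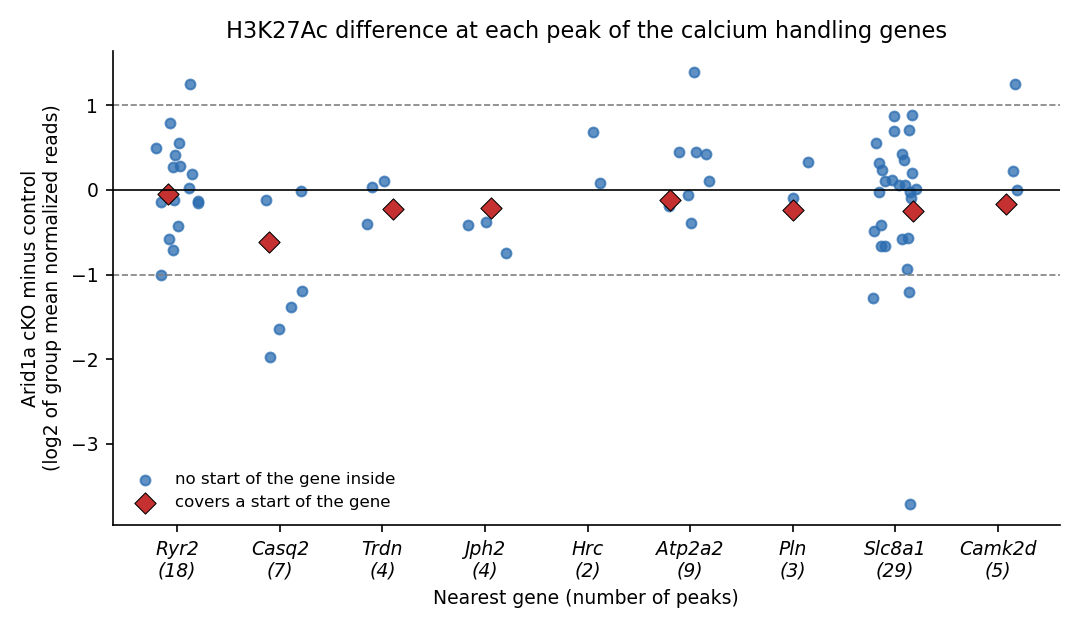
Difference between *Arid1a cKO* and control in the log2 of the group mean normalized reads (vertical axis) for each of the 81 peaks, by nearest gene (horizontal axis, number of peaks in parentheses). Diamonds are peaks that cover a start of the gene, circles are all other peaks, and dashed lines mark 2-fold. The 8 diamonds lie between −0.62 and −0.05, and *Casq2* holds 4 of the 8 peaks at or past −1; the lowest point, of *Slc8a1*, has a group mean under 3 reads in *Arid1a cKO* hearts.

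The peaks of the set that cover a start of their own gene differed by less, and all lay on the same side of 0. Of the 10 genes, 8 had such a peak of their own, and all 8 were lower in *Arid1a cKO* hearts, by differences from −0.62 at *Casq2* to −0.05 at *Ryr2* with a median of −0.22. The start of *Hrc* lay under a peak that was nearest to *Trpm4* and so not counted, and that peak was above 0, at 0.12. None of the 8 reached 2-fold, which was rare at starts in general. Among the 12022 start-covering peaks of the whole table, 1.70% were at least 2-fold lower and 1.16% at least 2-fold higher. Of these 12022 peaks, 5767 (48.0%) were below 0, with a median of 0.01. Summed over their peaks, 8 of the 9 genes with peaks were below 0 as well, and only *Hrc* was above. Over all 15765 genes with a peak the median summed difference was −0.004, with quartiles of −0.20 and 0.18. *Ryr2*, *Atp2a2*, *Camk2d*, *Trdn* and *Slc8a1* lay between these quartiles, and *Casq2*, *Jph2* and *Pln* lay below them. The sums of the set rest largely on the same start peaks, which held 99.0% of the control reads of *Pln*, 88.2% of *Atp2a2* and 84.0% of *Camk2d*. Without the highest peak of each gene, *Atp2a2* was at 0.25, *Camk2d* at 0.07 and *Pln* at 0.05. *Casq2* (−1.29), *Jph2* (−0.24), *Slc8a1* (−0.13), *Trdn* (−0.04) and *Ryr2* (−0.04) stayed below 0. For *Ryr2* and *Jph2* the highest peak covered no start, so their start peaks remained in these sums. By the mean of the log2 differences, *Ryr2* was at 0.05, *Atp2a2* at 0.23, *Camk2d* at 0.22 and *Pln* at 0. The direction of these 4 genes thus depends on how their peaks are weighted. In controls the 81 peaks together held 25724 normalized reads, against 22640 in the mutants, a change of −11.99% beside −5.65% for all peaks. The most acetylated gene of the set, *Atp2a2*, held 26.4% of these control reads but 10.6% of the net loss, whereas *Casq2* held 4.104% of the reads and 15.7% of the loss, and *Jph2* 17.9% and 30.2%.

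These are bulk ventricles, so that fewer cardiomyocytes and less H3K27Ac per cardiomyocyte cannot be told apart. Promoter peaks of cardiomyocyte marker genes were found for 4 of 5 markers, with differences from −0.43 at *Tnnt2* to 0.13 at *Myh6*. Their sum was 7338 normalized reads in control and 6844 in *Arid1a cKO* hearts. *Myh6* alone held 3591 and 3929 of these reads, and the other markers with a peak were all lower. *Myh6* encodes αMHC, whose promoter also drives the Cre transgene that only the mutants carry. Whether the transgene adds reads to this peak was not tested. Of these markers *Actn2* was at −0.40 and *Ttn* at −0.22, while *Tnni3* had no promoter peak of its own. For this and all other markers, only peaks nearest to the marker gene were searched. A start under a peak nearest to another gene, as at *Hrc*, thus counts as having none. A missing promoter peak therefore does not show that the start lacks H3K27Ac. Fibroblast markers had promoter peaks for 7 of 7 genes, all higher in *Arid1a cKO* hearts, by 0.17 to 0.71, and summed to 1723 and 2422 reads. Endothelial markers (5 of 5 genes) lay between −0.02 and 0.13. Smooth muscle and pericyte markers (4 of 5) lay between −0.02 and 1.09. Among these *Acta2* was at 0.89, and the study describes its product as a contractile protein that is lowered as the heart matures. Leukocyte markers (2 of 4) lay between 0.19 and 0.43. Markers of atrial cardiomyocytes (3 of 4) ran from −0.28 at *Myl4* to 2.24 at *Nppa* and summed to 71.5 and 261 reads. Most of these reads were those of *Nppa*, with 49.5 and 234. *Myl7* had 2.45 and 11.4 reads, *Myl4* had 19.6 and 16.1, and *Bmp10* had no promoter peak. Liver, pancreas, neuron and skin markers had promoter peaks for 0 of 4 genes. The part that cell composition has in the differences at the calcium handling genes was not tested.

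**Figure D2:**
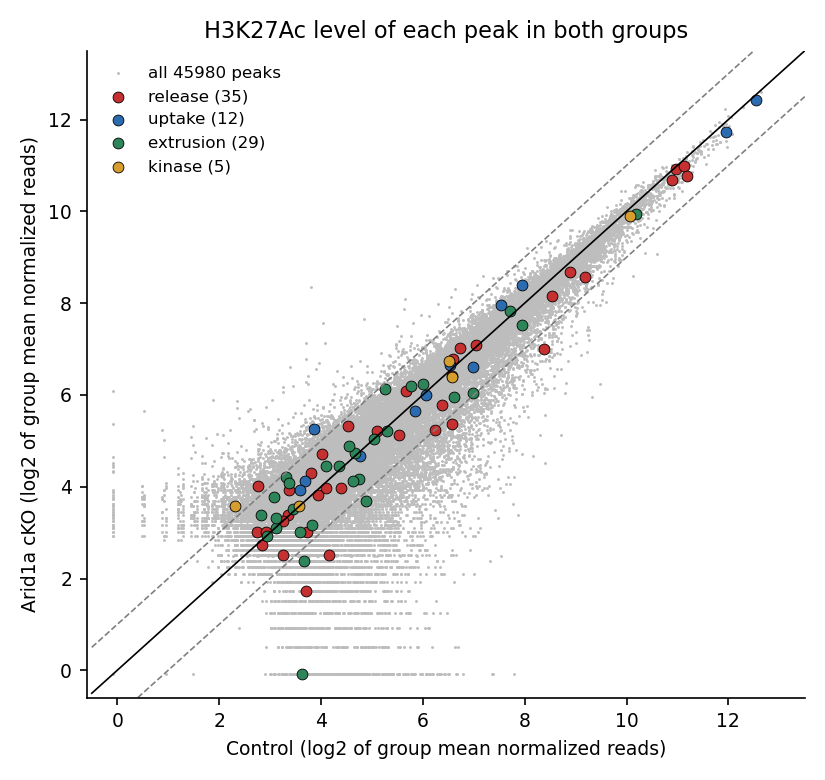
Log2 of the group mean normalized reads in control (horizontal axis) and *Arid1a cKO* hearts (vertical axis) for all 45980 peaks (grey) and the 81 peaks of the calcium handling genes, colored by the role of their gene in calcium release, uptake, extrusion or as a kinase. The solid line marks equal levels and the dashed lines 2-fold; the broad start peaks of *Atp2a2* and *Pln* sit at the upper end of the whole table, just under the line of equal levels.

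*Casq2*, which encodes the calcium buffer of the sarcoplasmic reticulum, showed the largest summed difference of the set. The gene lies on chromosome 3 of mm10 from 102086415 to 102146514 on the plus strand and had 7 peaks, all below 0. Its reads summed to 1056 in control and 572 in *Arid1a cKO* hearts, a log2 difference of −0.88. Of the 15765 genes with a peak, 5.81% had a lower summed difference, where the 5th percentile was −0.98. The peak over the start (chr3:102084792-102089295, 4.50 kb) had 580 normalized reads in control and 377 in *Arid1a cKO* hearts, a difference of −0.62. Inside the gene the differences were larger. The wide intronic peak 12.2 kb downstream of the start (chr3:102095286-102101908) had 333 and 128 reads, which is 2.60-fold lower. A peak 26.0 kb downstream (chr3:102111310-102113602) had 95.01 and 41.4 reads, 2.30-fold lower. Between them lay a pair of small peaks, with 13.0 and 3.32 reads (−1.97) at chr3:102102500-102103310 and with 17.8 and 5.70 reads (−1.64) at chr3:102103814-102105018. The remaining 2 peaks, at 4.15 kb upstream and 49.4 kb downstream, held under 10 reads in each group and differed by −0.12 and −0.01. Without the start peak the gene's summed difference was −1.29. Of the 2746 genes with 5 or more peaks, 110 (4.01%) had most of them (above 50%) at least 2-fold lower, as *Casq2* did.

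The bases under these peaks were read from the GRCm38.p6 reference, the assembly behind mm10, and searched on both strands for 5 short cores. The cores were AAGGTCA of estrogen-related receptors (ESRR), CATTCC of TEAD factors, AGATAA of GATA factors, AGGTGT of T-box factors, and a core of MEF2 factors that reads CTA and TAG with 4 bases of A or T between them. Looser forms of the cores, such as MEF2 sites with other letters at their ends, were not searched. No core contains another, and a match is a description of the letters and not a bound site. The ESRR core was present in 3 of the 4 lower *Casq2* peaks and in 5 of all 7, beside 40.3% of all lower peaks and 36.6% of all peaks of the table. Counted by length, the lower *Casq2* peaks held 0.366 matches per kb, beside 0.309 in all lower peaks. The TEAD, GATA and T-box cores were each in 3 of the 4 lower peaks too, beside 62.05%, 59.1% and 59.4% of all lower peaks, and the MEF2 core was in 0. Windows around the ESRR matches are printed from the plus strand, with the core in capitals where TGACCTT is AAGGTCA on the minus strand, to show the sequence of the lower peaks that hold a match. None of the windows overlaps an annotated exon.
*Casq2* intron, chr3:102100004-102100101, plus strand: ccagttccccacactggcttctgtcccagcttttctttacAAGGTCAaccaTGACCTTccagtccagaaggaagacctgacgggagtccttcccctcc
*Casq2* intron, chr3:102102730-102102816, plus strand: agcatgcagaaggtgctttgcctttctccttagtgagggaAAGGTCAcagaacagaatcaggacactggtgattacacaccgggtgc
*Casq2* intron, chr3:102111973-102112059, plus strand: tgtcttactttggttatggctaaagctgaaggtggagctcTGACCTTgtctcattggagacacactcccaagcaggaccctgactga

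In the first window, which lies in the peak with 333 and 128 reads, 2 cores face each other in opposite orientation, 4 bases apart. The 250 bases upstream of the *Casq2* start held none of the 5 cores in these spellings. They are shown because the peak over them had the lowest difference among the 8 start peaks.
*Casq2* upstream of the start, chr3:102086165-102086414, plus strand: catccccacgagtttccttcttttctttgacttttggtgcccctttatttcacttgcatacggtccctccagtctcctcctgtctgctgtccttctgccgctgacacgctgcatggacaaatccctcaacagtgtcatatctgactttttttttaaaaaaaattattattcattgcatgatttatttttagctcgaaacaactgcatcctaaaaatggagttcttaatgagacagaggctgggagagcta

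*Ryr2*, the calcium release channel itself, differed little in its summed reads. The gene lies on chromosome 13 from 11553099 to 12106945 on the minus strand and had 18 peaks, whose reads summed to 4893 in control and 4622 in *Arid1a cKO* hearts, a difference of −0.08. The peak over the start (chr13:12090423-12107903, 17.5 kb wide) had 2006 and 1938 reads, a difference of −0.05. Another broad peak, 24.2 kb upstream of the start (chr13:12124210-12137990, 13.8 kb), had the most control reads of the gene, with 2241 and 2034, a difference of −0.14. The small peaks inside the gene differed by their place. The 8 intronic peaks between 18.3 and 47.0 kb from the start were all above 0, with differences from 0.02 to 1.25, and summed to 275 and 350 reads. The 6 intronic peaks between 66.5 and 173 kb were all below 0, from −1.0 to −0.12, and summed to 307 and 224 reads. This split at 60 kb was chosen after the values were seen. The peak at chr13:12088191-12089043, with 6.77 and 16.1 reads (1.25), was the only *Ryr2* peak at least 2-fold higher. The only one at least 2-fold lower, at chr13:12000516-12002979 and 105 kb into the gene, had 75.6 and 37.8 reads, a difference of −1.0 that lies on the limit in a table rounded to 2 decimals. This peak held 4 ESRR cores, 3 of them within 92 bases, shown here as the window with the most matches among the lower peaks.
*Ryr2* intron, chr13:12001143-12001314, plus strand: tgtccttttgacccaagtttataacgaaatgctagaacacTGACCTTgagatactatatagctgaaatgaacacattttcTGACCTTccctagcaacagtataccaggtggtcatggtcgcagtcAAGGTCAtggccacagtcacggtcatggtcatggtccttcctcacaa

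A further peak within the *Ryr2* gene, 417 kb from its start, was nearest to *Zp4-ps* and not counted above. It had 19.3 and 9.0 reads, a difference of −1.10.

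**Figure D3:**
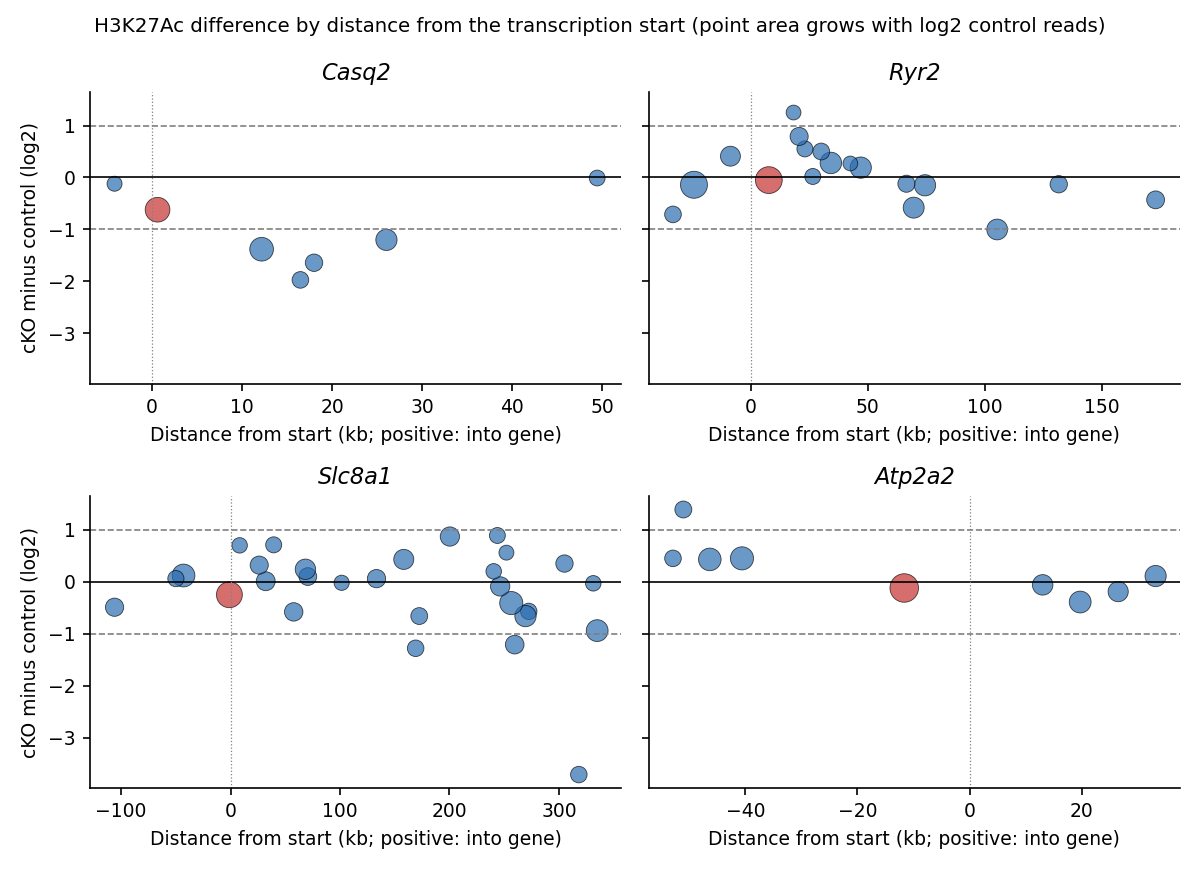
Difference between *Arid1a cKO* and control in log2 group mean reads (vertical axis) against the distance of each peak center from the nearest start of its gene in kb (horizontal axis, positive into the gene) for *Casq2*, *Ryr2*, *Slc8a1* and *Atp2a2*. Red points cover a start, the area of a point grows with the log2 control reads, and dashed lines mark 2-fold. *Ryr2* peaks lie above 0 between 18.3 and 47.0 kb and below 0 from 66.5 kb on, and the 4 lower *Casq2* peaks lie between 12.2 and 26.0 kb.

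*Jph2*, whose product junctophilin 2 forms the junction between reticulum and cell membrane, was lower at each of its 4 peaks, by −0.74 to −0.21. The gene lies on chromosome 2 from 163336242 to 163398049 on the minus strand. Of its peaks, 3 were wider than 10 kb and together covered most of the gene. The widest (chr2:163351212-163388151) spanned 36.9 kb, the 15th widest peak of the table, and had 2320 normalized reads in control and 1734 in *Arid1a cKO* hearts, a difference of −0.42. The peak over the start (chr2:163389519-163401519) had 1898 and 1641 reads (−0.21), and the broad peak toward the end of the gene (chr2:163339218-163350700) had 372 and 286 (−0.38). The sum was 4600 and 3666 reads, a difference of −0.33 and the largest loss in reads of the set. The 4 peaks held 17 ESRR and 4 MEF2 cores over 61.1 kb. That is 0.278 and 0.0655 matches per kb, beside 0.230 and 0.0334 over all peaks.

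*Trdn*, which anchors calsequestrin to the release channel, lies on chromosome 10 from 33083483 to 33476709 on the plus strand. Its 4 peaks summed to 688 and 615 reads, a difference of −0.16. The peak over the start (chr10:33081861-33088055) had 474 and 407 reads, a difference of −0.22, and the other 3 lay within 13.2 kb downstream with differences of 0.10, 0.03 and −0.40. A larger peak further inside the gene, nearest to *D830005E20Rik* and therefore not counted, had 1031 and 942 reads (−0.13). *Hrc* lies on chromosome 7 from 45335269 to 45338973 on the plus strand and had 2 small peaks of its own. The peak at chr7:45337393-45337983 had 7.62 and 8.06 reads (0.08). The peak at chr7:45339146-45340486, whose center lies in an exon of *Ppfia3*, had 16.2 and 26.2 reads (0.69). Their sum of 23.8 and 34.2 reads made *Hrc* the only gene of the set above 0, by 0.52. The *Hrc* start itself lay under a peak nearest to *Trpm4*, which had 286 and 311 reads and differed by 0.12.

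*Atp2a2*, which encodes the SERCA pump, carried the broadest and highest acetylation of the set. The gene lies on chromosome 5 from 122453513 to 122502225 on the minus strand and had 9 peaks. The peak over its start (chr5:122492528-122535230) spanned 42.7 kb, the 10th widest of the table, and had 5997 reads in controls, the 3rd highest of all 45980 peaks, and 5518 in *Arid1a cKO* hearts. The difference was −0.12. The 4 further counted peaks inside the gene lay between −0.39 and 0.11 and summed to 345 and 312 reads. Another 4 peaks, inside the gene or within 5 kb of it, were nearest to *Anapc7* and not counted. They lay between −0.81 and 0.35 and summed to 186 and 202 reads. The 4 peaks upstream of the broad peak, in introns of the neighbor *Ift81*, were all above 0, by 0.43 to 1.39, and summed to 459.5 and 643 reads. The highest of these differences belonged to chr5:122552552-122554038, with 14.6 and 38.3 reads. All 9 counted peaks summed to 6801 and 6473 reads, a difference of −0.07, of which the broad peak held 88.2% in controls. Without it the sum was 0.25 higher on the log2 scale in *Arid1a cKO* hearts.

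*Pln*, the inhibitor of SERCA, lies on chromosome 10 from 53337686 to 53345999 on the plus strand, within the region of the gene *Cep85l*. A single peak (chr10:53320607-53346166, 25.6 kb) covered the whole gene and held 99.0% of its control reads. It had 3984 reads in controls, the 11th highest of the table, and 3373 in *Arid1a cKO* hearts, a difference of −0.24. The other 2 peaks had 12.04 and 15.1 reads (0.33) and 27.3 and 25.6 reads (−0.09). The sum of the gene was 4023 and 3414 reads, a difference of −0.24. Between the pump and its inhibitor, the start peak of *Pln* was thus further below 0 than that of *Atp2a2*, by a margin that cannot be set against replicate error. The 250 bases upstream of the *Pln* start are AT-rich, with 32.8% G and C, and hold 1 GATA core (TTATCT on the plus strand), which 9.99% of 32851 windows of that length upstream of mouse starts hold. They are shown because the peak over them was the highest of the set after that of *Atp2a2*.
*Pln* upstream of the start, chr10:53337436-53337685, plus strand: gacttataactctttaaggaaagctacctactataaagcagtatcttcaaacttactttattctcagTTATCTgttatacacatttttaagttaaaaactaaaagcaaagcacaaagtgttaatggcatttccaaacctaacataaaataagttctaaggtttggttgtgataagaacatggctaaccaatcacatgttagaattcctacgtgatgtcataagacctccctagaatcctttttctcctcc

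*Sln*, on chromosome 9 from 53850251 to 53853849, had no peak nearest to its start. The closest peaks lay 182 kb away on the side of lower coordinates (428 and 375 reads, −0.19, nearest gene *Gm16124*) and 647 kb away on the other side (141 and 184 reads, 0.38, nearest gene *Dmxl2*). The table lists only called peaks, so that a low level of H3K27Ac at *Sln* cannot be read from it.

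**Figure D4:**
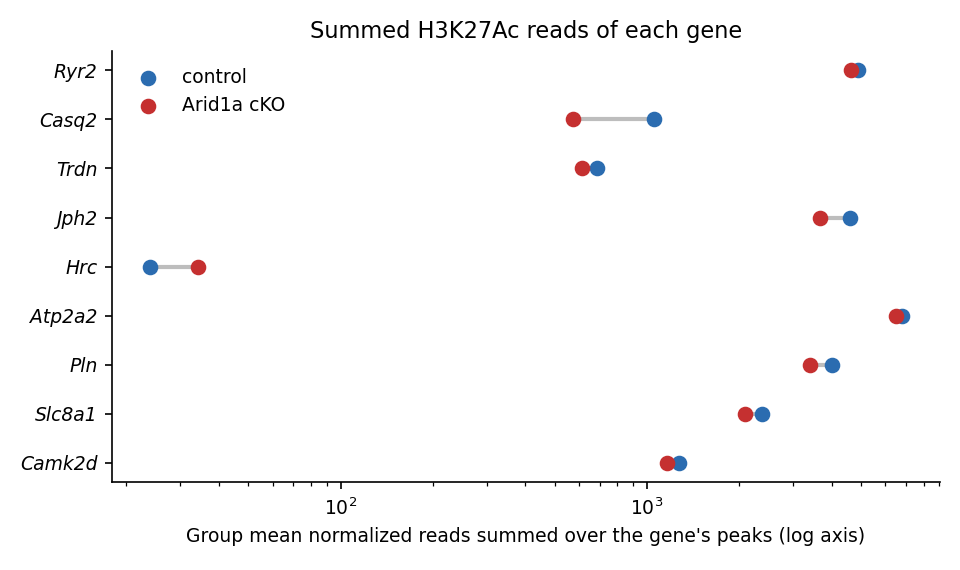
Group mean normalized reads summed over the peaks of each gene (horizontal axis, logarithmic) in control and *Arid1a cKO* hearts, with 1 row per gene and a bar joining both groups. *Casq2* has the widest gap, from 1056 to 572 reads, while the points of *Atp2a2* and *Ryr2* nearly coincide and those of *Hrc* are in the opposite order at 23.8 and 34.2 reads.

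*Slc8a1*, the exchanger that removes calcium across the cell membrane, lies on chromosome 17 from 81373105 to 81738387 on the minus strand and had 29 peaks, the most of the set. The peak over its start (chr17:81734539-81744302) had the most reads, 1168 in control and 982 in *Arid1a cKO* hearts, a difference of −0.25. The other 28 peaks were spread over introns and upstream sequence, with 13 below 0 and 15 above, and the gene's sum was 2369 and 2081 reads, a difference of −0.19. The 13 intronic peaks over 200 kb from the start summed to 653.5 and 511 reads and held 2 of the 3 lower peaks, whereas the 12 nearer intronic peaks summed to 301 and 330 reads. This split too was made after the values were seen. The peak at chr17:81477902-81479682 had 29.7 and 12.8 reads, 2.31-fold lower. That at chr17:81568976-81569602 had 12.6 and 5.21 reads, 2.43-fold lower. The third, at chr17:81419880-81420555, had 12.4 reads in controls and the lowest value of the table in *Arid1a cKO* hearts, so that its fold is a bound of at least 4.13-fold lower against a floor of 3 reads per group mean. The strongest peak just short of 2-fold (chr17:81402010-81404885) had 126 and 65.8 reads, a difference of −0.94. On the other side, the peaks at chr17:81494032-81495193 and chr17:81536265-81539771 were at 0.89 and 0.87. Of the 3 lower peaks, only the first held an ESRR core, and the 250 bases upstream of the start held 1 GATA core.
*Slc8a1* intron, chr17:81478837-81478923, plus strand: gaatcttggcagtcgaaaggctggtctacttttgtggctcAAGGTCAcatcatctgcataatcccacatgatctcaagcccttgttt

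*Camk2d*, the kinase of the set, lies on chromosome 3 from 126595487 to 126846326 on the plus strand, downstream of *Casq2* on the same chromosome. Its peak over the start (chr3:126595267-126600827) had 1067 and 949 reads, a difference of −0.17, and the highest control reads per kb of the 8 start peaks, at 192. The other 4 peaks lay within 33.4 kb downstream. The only one past 2-fold was small (chr3:126614910-126615788), with 4.99 and 11.9 reads. The sum was 1271 and 1163 reads, a difference of −0.13. Another 17 peaks within the gene were nearest to other starts, mostly that of *Gm15551*, and summed to 2239 and 1952 reads, with a median difference of −0.18, 2 at least 2-fold higher and 0 at least 2-fold lower.

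Broad peaks were frequent in the set. Of the 81 peaks, 7 were at least 10 kb wide (8.64%, beside 1.56% of all peaks), and they belonged to *Ryr2*, *Jph2*, *Atp2a2* and *Pln*. All 7 were below 0, from −0.42 to −0.05, and they held 18818 of the 25724 control reads. Of the 716 such peaks of the table, 437 (61.0%) were below 0, the median was −0.06 and 7 were at least 2-fold lower. The median difference of the 7 was −0.21. Release genes summed to a change of −15.6%, uptake genes of −8.66%, *Slc8a1* of −12.1% and *Camk2d* of −8.54%, beside −5.65% for all peaks. The genes within a role differed widely. Among release genes *Casq2* changed by −45.8%, *Jph2* by −20.3%, *Trdn* by −10.6%, *Ryr2* by −5.55% and *Hrc* by 43.5%. Among uptake genes *Pln* changed by −15.1% and *Atp2a2* by −4.82%.

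The ESRR core occurred in 40 of the 81 peaks (49.4%) and in 36.6% of all peaks, and at 0.314 matches per kb beside 0.230. Among the 8 lower peaks of the set, 5 held it (62.5%, beside 40.3% of the 4878 lower peaks of the table). The MEF2 core occurred in 10 of the 81 peaks (12.3%, beside 7.56%), at 0.0329 matches per kb beside 0.0334, and in 0 of the 8 lower ones (beside 10.3%). The MEF2 matches lay in peaks of *Jph2* (3 peaks), *Ryr2* (3), *Atp2a2*, *Pln*, *Trdn* and *Slc8a1* (1 each). TEAD, GATA and T-box cores occurred in 69.1%, 64.2% and 60.5% of the peaks and in 65.4%, 60.1% and 61.3% of all peaks. Per kb they numbered 0.598, 0.703 and 0.616 beside 0.612, 0.538 and 0.565. The set holds wide peaks, and counted by length the MEF2 and TEAD cores were thus no more frequent than in all peaks.

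Other genes of calcium handling were described by the same counts. Of 39 further genes, 34 had 135 peaks, with a median difference of 0.03. Of these peaks 18 (13.3%) were at least 2-fold lower and 6 (4.44%) higher, beside 10.6% and 4.57% of all peaks. By summed reads 2 genes were at least 2-fold lower. These were *Ppp1r1a*, an inhibitor of protein phosphatase 1, with 11.2 and 3.78 reads at its single peak (−1.57), and *Cmya5*, a protein of the cardiac dyad, with 283 and 100.5 reads (−1.49). The next lowest was *Ppp1r3a*, a subunit that targets the phosphatase to glycogen and the reticulum, with 452 and 276 reads (−0.71). *Jph1*, the skeletal relative of *Jph2*, was at −0.67 and *Tmem38a*, which encodes the reticulum's potassium channel TRIC-A, was at −0.49. Between them lay *Cav3* (−0.57), *Camk2g* (−0.51) and *Camk2a* (−0.50). The 3 highest were *Tmem38b* (0.42), the IP3 receptor *Itpr3* (0.41) and *Bin1* (0.29), which shapes T-tubules. *Ryr1*, *Ryr3*, *Strit1*, *Slc8a3* and *Camk2b* had no peak.

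L-type calcium channel genes, which bring in the calcium that opens RYR2, had 52 peaks at 7 of 10 genes. Of these, 12 (23.1%) were at least 2-fold lower and 4 (7.69%) higher, beside 10.6% and 4.57% of all peaks. The median difference of the L-type peaks was −0.41, and their reads summed to 7370 in control and 5583 in *Arid1a cKO* hearts (−24.2%). The auxiliary subunit gene *Cacnb2* was lowest at −0.84, with 2334 and 1305 reads, followed by *Cacnb4* (−0.54) and the pore gene *Cacna1c* (−0.25, with 3721 and 3131 reads). *Cacnb3* was highest at 0.79, followed by *Cacnb1* at 0.35 and *Cacna1d* at −0.06. Ribosomal protein genes, nearly all of them active in every cell, had 103 peaks with 10 (9.71%) lower and 1 (0.971%) higher, a median of −0.02 and a summed change of −2.68%. By summed reads the lowest of these genes were *Rps10* (15.5 and 7.11 reads, −1.12), *Rpl3l* (−0.79), a relative of *Rpl3* found in heart and skeletal muscle, and *Rps15a* (−0.54), and the highest were *Rpl30* (0.46), *Rps9* (0.26) and *Rps3* (0.21).

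**Figure D5:**
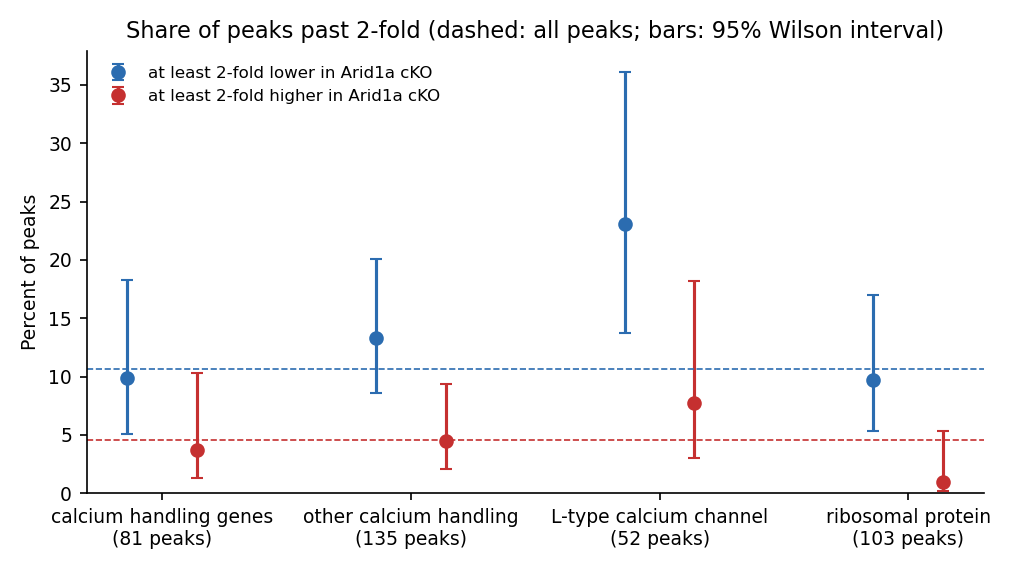
Percent of peaks at least 2-fold lower (blue) or higher (red) in *Arid1a cKO* than in control hearts (vertical axis) in each gene list (horizontal axis, number of peaks in parentheses), with 95% Wilson intervals that cover counting error only. Dashed lines give the shares over all peaks, 10.6% and 4.57%; the calcium handling genes lie near both lines at 9.88% and 3.70%, and the L-type channel genes lie above the lower-peak line at 23.1%.

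The interval of the lower share of the calcium handling genes ran from 5.09% to 18.3%, and that of the L-type channel genes from 13.7% to 36.1%. They treat peaks as independent, although peaks of a gene share their locus and all peaks share the same 4 ChIP samples, and the difference between the lists was not tested.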

How the data were processed

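H3K27Ac ChIP-Seq of P7 ventricles from 2 Arid1a f/f controls and 2 *Arid1a cKO* mutants, each with an input library, was analyzed from the deposited peak table. Per the labels and the methods of the study, the authors aligned reads (BWA 0.7.17-r1188) to the mm10 genome. Peaks were called by HOMER against merged inputs, those of only a single sample were dropped, and the authors compared genotypes by DiffBind 2.12.0 with DESeq2 1.24.0. The submitters' processing notes list HOMER 4.11. The deposited values used are, per peak, log2 means of normalized read counts, over all samples and in each group, rounded by the authors to 2 decimals. The scaling and any subtraction of input are not given in the sources used here. The table also holds the authors' fold changes, p-values and FDR, which were not used. It has 0 columns of single samples, so depth per sample, replicate error and tests were out of reach.

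Of 45987 peaks, 7 on unplaced sequences were left out. Peaks were given to the nearest of 45756 curated RefSeq transcript starts of GRCm38.p6, after chromosome lengths were checked for 21 chromosomes. The group means per peak were taken from log2 to reads and summed by gene. Start-covering peaks hold a curated start of their gene. A mean at or under 3 reads was treated as a floor. Cores were counted on both strands. Promoter sequences, the 250 bases before a start, are RefSeq's; 7 of the 10 genes, *Camk2d*, *Casq2*, *Hrc*, *Jph2*, *Pln*, *Ryr2* and *Slc8a1*, matched its table, and *Atp2a2*, *Trdn* and *Sln* did not.

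The text names the 10 genes, for each the peak with the highest control level, the promoter peak and peaks at or past 2-fold with at least 10 reads in a group, and, of other lists, genes at or past 2-fold and the 3 highest and 3 lowest. Smaller peaks and further genes named were chosen after their values were seen. The genes and lists were chosen with earlier results of these data known. Alternatives covered the assignment of peaks, the fold limit (1.5 and 3), low peaks, 10 added reads and centering. The steps were tested on simulated data. Python 3.11.15 was used with numpy 2.4.6, pandas 2.3.3, statsmodels 0.14.6 and matplotlib 3.10.9.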

Additional observations from a re-analysis of the deposited data

How the results depend on the processing

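The share of calcium handling peaks at least 2-fold lower stayed within its interval (5.09% to 18.3%) when peaks were given to genes by the gene's span, when predicted transcripts were also used, within 50 kb of a start, without the 25% of peaks with the lowest level and after centering. It was 3.70% with 10 reads added to each group mean and 3.70% at a 3-fold limit, beside 6.19% and 5.596% of all peaks. The share of higher peaks was 0% with 10 reads added and 0% at 3-fold, and 11.1% at 1.5-fold, beside 12.02% of all peaks. Leaving out *Casq2*, chosen after seeing the data, left 5.41% lower. The median difference ran from −0.12 to 0.01. Of 36 alternative sums of single genes, 14 moved by over 0.1. Without its highest peak *Casq2* was at −1.29, and by the mean of log2 differences *Ryr2* was at 0.05, *Atp2a2* at 0.23, *Camk2d* at 0.22 and *Pln* at 0, in which small peaks weigh as much as broad ones. No paired analysis was possible because the table holds only group means, and for the same reason no sample could be left out. Group means under about 10 reads limit the folds of small peaks, and replicate error is unknown throughout.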
